A study of Homo sapiens with 62 samples.

Results

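The 10 genes described here are the classical readouts and regulators of epithelial-mesenchymal transition: the cadherin genes CDH1, CDH2 and CDH3, the mesenchymal products VIM and FN1, and the transcription factors ZEB1, ZEB2, SNAI1, SNAI2 and TWIST1. They were taken by gene name from SLAM-seq tables of the pancreatic ductal adenocarcinoma lines AsPC-1 and T3M-4, with earlier results of these data known. They make up 10 of the 29794 genes in the tables. In epithelial-mesenchymal transition, epithelial cells loosen the junctions held by E-cadherin and take up mesenchymal products such as vimentin and fibronectin. The ZEB, SNAI and TWIST factors bind E-boxes, among them those of the CDH1 promoter, and repress epithelial genes. ZEB1 and ZEB2 in turn are held down by the miR-200 family and miR-205, which bind their 3′ untranslated regions.

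The study used AsPC-1 as a line of the classical subtype and T3M-4 as a line of the basal-like subtype, 1 line of each, so that subtype and line cannot be told apart. All libraries, controls included, came from cells in which KLF5, a zinc finger transcription factor of epithelial cells, was carried as a lentivirally expressed FKBP12(F36V)-FLAG-KLF5 fusion and the endogenous KLF5 gene was targeted with an sgRNA, with the cells kept as selected populations. Cells received dTAGv-1 (dTAG), which draws the fusion protein to degradation, or its inactive analog dTAGv-1-NEG (NEG), for 4 h. Others received CB-6644, an inhibitor of the RUVBL1/2 ATPases, the CDK9 inhibitor NVP-2, or the solvent DMSO for 4 h, and AsPC-1 cells also received CB-6644 or DMSO for 12 h. In AsPC-1 there were 10 libraries each of dTAG and NEG, 5 each of CB-6644 and DMSO at 4 h, 4 each of CB-6644 and DMSO at 12 h, and 4 of NVP-2. In T3M-4 there were 4 libraries in each of the 5 groups. The 62 libraries formed 12 groups and 7 comparisons of a treatment with its control.

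RNA made during the last 2 h was labelled with 4-thiouridine, which is read as T-to-C conversions, and the deposited tables hold, per gene, the reads with such conversions (T>C reads) and all reads in the 3′ untranslated regions. Levels are given as CPM, counts scaled to the TMM-adjusted total of the library in the same table, and the labelled share is the T>C reads of a gene as a percentage of all its reads. A library held 2240998 to 27982537 T>C reads and 8.27e+07 to 2.45e+08 counts over all reads, and the NVP-2 libraries had the lowest T>C totals, 2240998 to 4982006. Over the whole library, the labelled share was 7.58% to 14.3% without NVP-2 and 1.35% to 2.8% with it. No library without 4-thiouridine was analysed here, so the share that sequencing errors add is unknown. A read in overlapping annotations could be counted more than once: every T>C count of FN1 in AsPC-1 was a multiple of 10. The numbers of a library name an experiment and a library within it, and the study describes 3 independent experiments for AsPC-1 and 2 for T3M-4. The p-values below therefore measure the spread between libraries, part of which may be technical. These are bulk samples, in which fewer cells of a kind and less RNA per cell cannot be told apart. All 5 epithelial markers (EPCAM and keratin genes) reached 1 CPM in both lines. The basal markers reached it for 1 of 6 genes in AsPC-1, with a sum of 10.2 to 58.1 CPM, and for 6 of 6 in T3M-4, with a sum of 2043 to 5766 CPM. KLF5 itself checks no label here, since the degron acts on the protein.

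Some of the 10 genes differed in level between the lines in control cells. Over all reads in DMSO at 4 h, 9 of the 10 genes passed the filter on low counts, and 7 of these differed between T3M-4 and AsPC-1 at an adjusted p under 0.05 in edgeR's quasi-likelihood test with Benjamini-Hochberg adjustment over all genes, 4 higher and 3 lower in T3M-4. Over all 15464 genes tested, 55.7% differed. In T>C reads 8 genes were tested and 5 differed, 3 higher and 2 lower in T3M-4, against 48.4% of 13044 genes. A share near that of all genes is not particular to these 10.

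**Figure D1:**
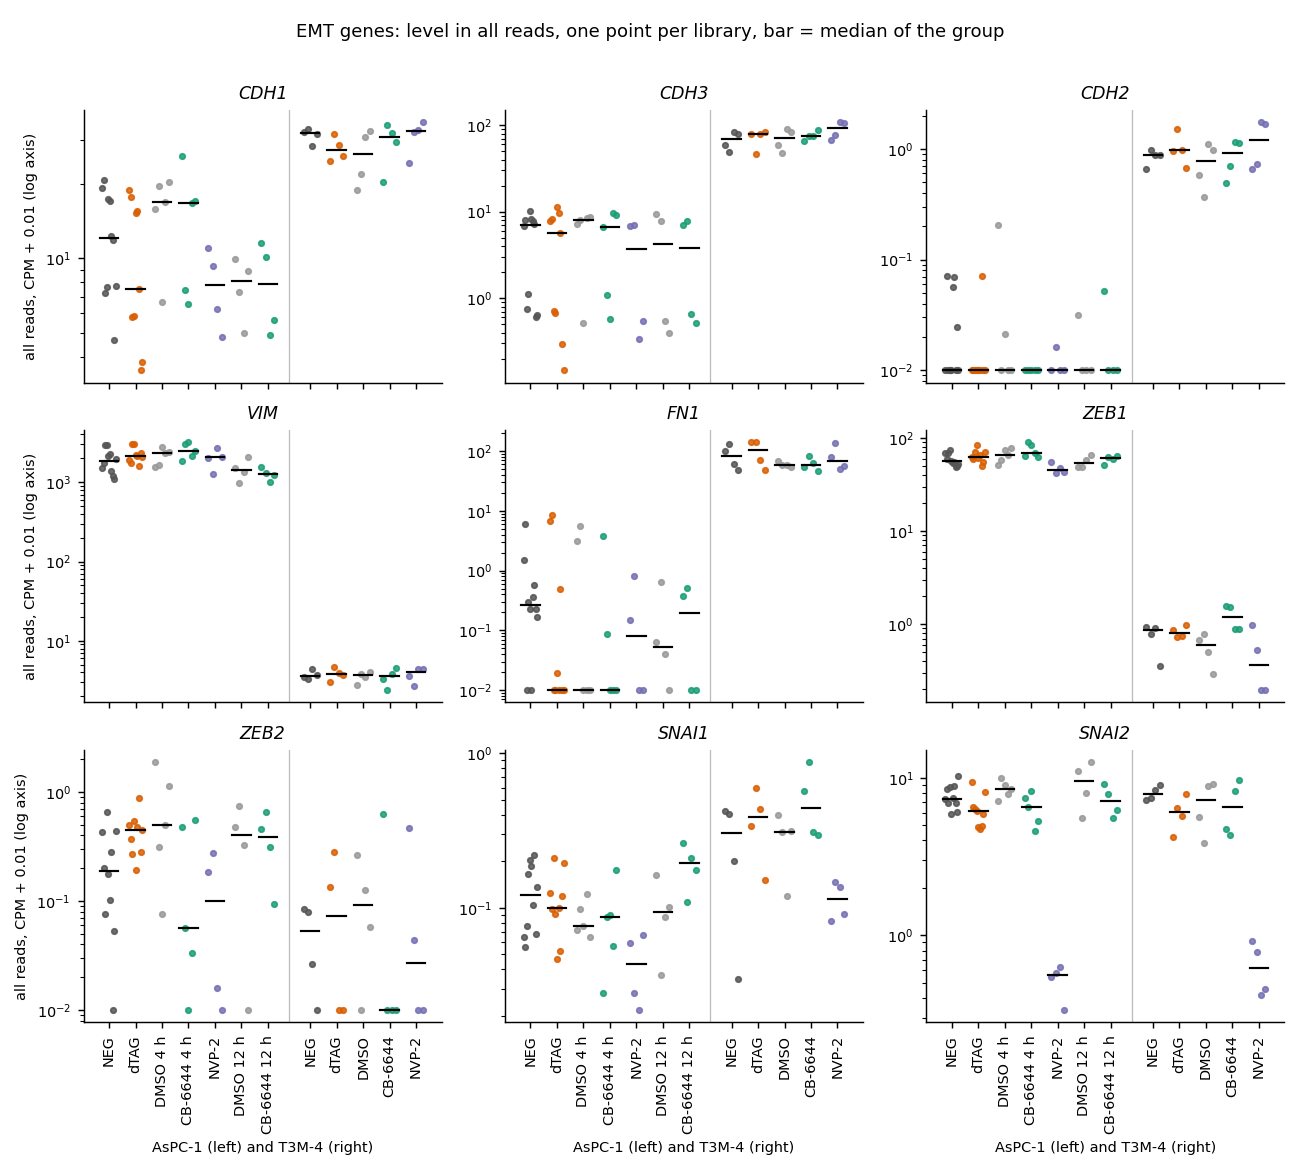
Level over all reads of 9 of the genes in each of the 12 groups, as CPM plus 0.01 on a log axis, with 1 point per library and a bar at the group median. VIM and ZEB1 lay higher in AsPC-1 and CDH3 and FN1 higher in T3M-4, while ZEB2 and SNAI2 overlapped between the lines and SNAI2 was lowest under NVP-2.

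CDH1 (E-cadherin, the adhesion molecule of epithelial junctions, chr16:68737292-68835537, plus strand of GRCh38) was read in both lines. Over all reads it stood at 15.9 ± 5.48 CPM (SD, n = 5) in AsPC-1 DMSO and 26.1 ± 6.82 CPM (SD, n = 4) in T3M-4 DMSO. Its groups overlapped, and the T3M-4 minus AsPC-1 difference of 0.71 on the log2 scale missed the threshold (adjusted p = 0.0692). With the NEG libraries in place of DMSO, the difference was 1.33 (adjusted p = 0.00172).

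CDH3 (P-cadherin, a cadherin of basal epithelial cells, chr16:68636189-68727468, plus strand) is the neighbour of CDH1. In T3M-4 DMSO its level over all reads was 58.8, 47.1, 89.3 and 83.5 CPM. In AsPC-1 DMSO it was 7.29, 8.01, 0.512, 8.53 and 8.64 CPM, with library 1.3 far below the others. Every T3M-4 library lay above every AsPC-1 library, by 3.39 on the log2 scale (SE 0.61, adjusted p = 0.000766).

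CDH2 (N-cadherin, the cadherin of mesenchymal and neural cells, chr18:27932879-28177946, minus strand) was scarce in both lines. T3M-4 DMSO libraries held 0.568, 0.361, 1.11 and 0.973 CPM over all reads, and the AsPC-1 DMSO group held 17 counts in all, 16 of them in library 1.1. The fitted difference of 4.29 (SE 1.19, adjusted p = 0.0107) rests on these few counts. Across all AsPC-1 libraries, T>C reads of CDH2 occurred in 1 of 42 (6 reads) and reads of any kind in 10 of 41. In T>C reads the 5 AsPC-1 DMSO libraries had 0 of CDH2 and the T3M-4 DMSO libraries 6, 0, 10 and 4.

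VIM (vimentin, the intermediate filament protein of mesenchymal cells, chr10:17228241-17237593, plus strand) showed the widest gap of the 9 genes tested. AsPC-1 DMSO libraries held 1544 to 2756 CPM over all reads with a median of 2325 CPM. The T3M-4 DMSO libraries held 2.74, 3.85, 3.54 and 3.99 CPM. The difference was -9.24 on the log2 scale (SE 0.31, adjusted p = 3.1e-08), and it was -9.50 in T>C reads.

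FN1 (fibronectin, an extracellular matrix protein, chr2:215360440-215436073, minus strand) went the other way. T3M-4 DMSO libraries held 68.2, 58.6, 59.5 and 55.1 CPM over all reads, and AsPC-1 DMSO libraries 3.08, 5.53, 0, 0 and 0 CPM. The groups did not overlap and differed by 5.12 (SE 1.5, adjusted p = 0.0138). All 5 AsPC-1 DMSO libraries had 0 T>C reads of FN1. Against a floor of 3 reads over the group, each counted 10 times (30 counts, 0.536 CPM), the T3M-4 mean of 35.3 CPM was at least 65.8-fold higher.

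Thus the pair of mesenchymal products split between the lines, with VIM in AsPC-1 and FN1 in T3M-4. Among the factors, ZEB1 shared the direction of VIM.

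ZEB1 (a zinc finger and homeobox repressor of CDH1, chr10:31318495-31529814, plus strand) stood at 51.2, 58, 73.6, 66 and 77.5 CPM over all reads in AsPC-1 DMSO and at 0.669, 0.768, 0.499 and 0.279 CPM in T3M-4 DMSO. No library of either line came near the other. The difference was -6.89 (SE 0.35, adjusted p = 1.71e-07) over all reads and -7.68 in T>C reads. ZEB2 (its paralog, chr2:144364364-144521057, minus strand) was low in AsPC-1, with a median of 0.487 CPM, and had 0 counts in 9 of the 20 T3M-4 libraries. Its difference of -2.88 (adjusted p = 0.0439) over all reads did not hold: leaving out any of 6 of the 9 libraries (T3M-4 replicates 1.2, 2.1 and 2.2 and AsPC-1 replicates 1.1, 2.1 and 2.2) gave adjusted p of 0.0507 to 0.1, and the NEG libraries gave -2.48 (adjusted p = 0.0602).

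The microRNAs known to bind the ZEB1 and ZEB2 3′ untranslated regions are shown because their target sites lie in the very stretch that the reads were counted in. The RefSeq sequences (GRCh38.p14) follow 5′ to 3′ with the seed, bases 2 to 8, in capitals, grouped by seed.
hsa-miR-200b-3p: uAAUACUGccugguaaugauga
hsa-miR-200c-3p: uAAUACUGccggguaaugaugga
hsa-miR-429: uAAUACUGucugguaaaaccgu
hsa-miR-200a-3p: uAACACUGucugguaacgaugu
hsa-miR-141-3p: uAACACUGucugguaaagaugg
hsa-miR-205-5p: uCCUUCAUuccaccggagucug
The seeds of the upper 3 and of the next 2 differ at 1 base, and the seed of miR-205 is its own.

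On the transcript strand the seed of miR-200b, miR-200c and miR-429 pairs with CAGTATT, which was held at least once by 16.3% of 19079 annotated 3′ untranslated regions, searched on that strand alone. The seed of miR-200a and miR-141 pairs with CAGTGTT, held by 18.4%. The seed of miR-205 pairs with ATGAAGG, held by 11.6%. The ZEB1 3′ untranslated region (2540 bases) held 6, 3 and 1 of these words. As many as 9 matches to the miR-200 seeds occurred in 8 of the 19079 regions, and among 2367 regions of 2000 to 3000 bases ZEB1 alone had 9, the next having 5. Of the other genes, ZEB2 (5370 bases) held 5 of CAGTATT and 4 of CAGTGTT, FN1 held 2 and SNAI2 held 1 of CAGTATT, and CDH3 held 1 of ATGAAGG. The remaining members held none. The ZEB1 matches are printed with 8 bases on each side, from the plus strand of chromosome 10 in GRCh38, with the match in capitals.
ZEB1 chr10:31527625-31527647: tatcttatCAGTATTatcactct
ZEB1 chr10:31527719-31527741: atccgcttCAGTATTttattatg
ZEB1 chr10:31528038-31528060: atcagaatCAGTGTTtgtgattg
ZEB1 chr10:31528074-31528096: ggtaacatATGAAGGatatgaca
ZEB1 chr10:31528148-31528170: ccatttctCAGTATTttcaaggc
ZEB1 chr10:31528499-31528521: ttacctatCAGTATTattttatt
ZEB1 chr10:31528569-31528591: aaacctggCAGTATTaataccct
ZEB1 chr10:31528789-31528811: tgatttaaCAGTGTTatgttaac
ZEB1 chr10:31529029-31529051: tctataaaCAGTGTTgggaacaa
ZEB1 chr10:31529220-31529242: atcattatCAGTATTttctttgg
These are letter matches and not measured sites. The tables count no mature microRNA, but they hold host genes, chosen here after their values were seen. MIR200CHG, which hosts miR-200c and miR-141, had a median of 0.253 CPM over all reads in AsPC-1 (0.0592 to 0.558) and of 3.32 CPM in T3M-4 (1.67 to 7.53), so the lines did not overlap. MIR205HG, the host of miR-205, had 117300 to 532400 reads per T3M-4 library and 0 in 36 of 41 AsPC-1 libraries. A host transcript is not the mature microRNA.

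SNAI1 (Snail, chr20:49982980-49988886, plus strand) was scarce, at a median of 0.0668 CPM over all reads in AsPC-1 DMSO and 0.301 CPM in T3M-4 DMSO. Its difference of 1.81 (adjusted p = 0.00738) fell to 1.11 with the NEG libraries (adjusted p = 0.101) and to 1.69 with the replicate number as a block (adjusted p = 0.0783). In T>C reads it was 2.09 (adjusted p = 0.0247), and 4 of the 9 libraries (T3M-4 replicates 1.1 and 2.2 and AsPC-1 replicates 1.3 and 2.2), left out in turn, each lifted the adjusted p over 0.05, to 0.0517 to 0.076. SNAI2 (Slug, chr8:48917598-48921740, minus strand) was the factor whose levels in the lines lay nearest. It stood at 8.47 ± 1.09 CPM (SD, n = 5) in AsPC-1 DMSO and 6.85 ± 2.55 CPM (SD, n = 4) in T3M-4 DMSO, and its difference of -0.31 missed the threshold (adjusted p = 0.32). TWIST1 (a basic helix-loop-helix factor, chr7:19020991-19117636, minus strand) had 0 reads in all 62 libraries of T>C reads and all 61 used of all reads, so it entered no test.

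Within AsPC-1, the level of the cadherins moved with library number. Clustering of the AsPC-1 libraries by 500 variable genes other than the 10 gave 3 sets, of 17 (set A), 17 (set B) and 8 libraries (set C), and every treatment had libraries in both A and B. Sets A and B each drew libraries from both batches, split by library number. In dTAG and NEG, set A held libraries 1.1, 1.2, 3.1 and 3.2, set B libraries 1.3, 1.4, 3.3 and 3.4, and set C libraries 2.1 and 2.2. In DMSO and CB-6644 at 4 h, set B held DMSO library 1.3 and CB-6644 libraries 1.2 and 1.3, and set C libraries 2.1 and 2.2. At 12 h set A held libraries 1 and 2 and set B libraries 3 and 4, and of NVP-2 set A held libraries 1.1 and 1.2 and set B libraries 2.1 and 2.2. CDH3 ran from 5.65 to 9.27 CPM over all reads in set A (median 7.52), from 0.137 to 1.12 CPM in set B (median 0.565) and from 8.17 to 11.2 CPM in set C (median 9.36). Set B overlapped neither of the others. CDH1 had medians of 12.1, 5.82 and 16.9 CPM in sets A, B and C, with set B at 3.53 to 8.91 CPM and set C at 15.3 to 20.4 CPM. FN1 had reads in every library of set A that was used, from 0.0545 to 8.42 CPM, and 0 in 12 of 17 libraries of set B and 6 of 8 of set C. The medians of VIM were 1560, 2304 and 2258 CPM, those of ZEB1 54.8, 65.1 and 63.7 CPM, and those of SNAI2 7.36, 6.5 and 5.57 CPM. No label names these sets, so whether they are batches was not tested.

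**Figure D2:**
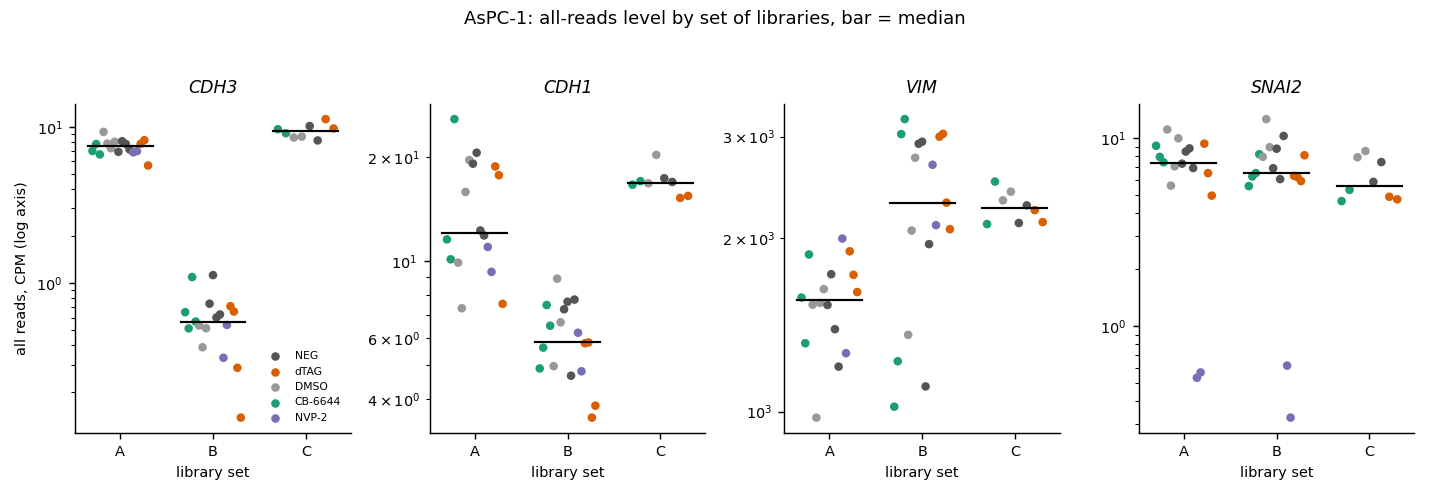
Level of CDH3, CDH1, VIM and SNAI2 over all reads (CPM, log axis) in the AsPC-1 libraries of sets A, B and C, with 1 point per library coloured by treatment and a bar at the set median. All CDH3 values of set B lie at or below 1.12 CPM and all others at or above 5.65 CPM, in treated and control libraries alike.

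CDH1 and CDH3 also varied together across libraries, with a Pearson r of 0.882 over the 37 AsPC-1 libraries without NVP-2, on log values after the group means were taken out. The points share library depth and the sets above. CDH3 with ZEB1 gave r = -0.408, CDH3 with VIM gave -0.329 and CDH1 with VIM gave -0.176. The genes most like CDH3 by this measure were TRIB2 (0.977), TNFAIP2 (0.976) and ANKRD1 (0.975), and those most like CDH1 were TWF2 (0.931) and CD109 (0.93). VIM was most like TWSG1 (0.892) and DSG2 (0.888), and ZEB1 most like MTAP (0.823). In T3M-4, over 16 libraries, CDH1 and CDH3 gave r = 0.325.

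Degradation of the KLF5 protein was the question of the dTAG and NEG libraries. In AsPC-1, 6 of the 10 genes were tested in T>C reads and 0 differed, with 1 of them (VIM) at an unadjusted p under 0.05 and 0 called by DESeq2; over all genes 2.4% of 11696 differed. In T3M-4, 8 were tested and 0 differed in edgeR, with 1 (CDH1) at an unadjusted p under 0.05 and called by DESeq2; over all genes 0.834% of 13424 differed. Over all reads, 0 of 8 genes differed in AsPC-1 (background 0.797% of 13931 genes) and 0 of 9 in T3M-4 (background 0.0191% of 15727 genes), with 0 members at an unadjusted p under 0.05 in edgeR and 0 called by DESeq2 in either. The call of CDH1 turned on how the libraries were compared.

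In AsPC-1, CDH1 stood in T>C reads at 21.3, 19.7, 6.35, 5.57, 18.9, 17.3, 13.4, 13.1, 5.6 and 9.56 CPM in NEG and at 21.5, 13.8, 2.88, 2.82, 14.1, 13.8, 5.94, 9.54, 2.33 and 3.09 CPM in dTAG, in the same order of library numbers. The groups overlapped widely, but dTAG was lower in 9 of 10 libraries of the same number. Across genes, the same number was the closest match on both sides in 3 of these 10 pairs, so the pairing is loose. The unpaired fit gave a change of -0.52 on the log2 scale (SE 0.39, adjusted p = 0.718). With the library number as a block, it was -0.73 (SE 0.16, adjusted p = 0.0102), in a fit in which 7.41% of 11696 genes differed. With library set as a block it was -0.72 (adjusted p = 0.00601), and with the experiment alone as a block -0.60 (adjusted p = 0.525). It was -0.36 within batch 1 and -1.0 within batch 2. On counts summed per experiment with the experiment as a block, no member passed, in a fit in which 223 of 13499 genes did. The blocks by library number and by library set count libraries of the same experiment as replicates. Over all reads CDH1 was lower in dTAG in 9 of 9 pairs, with a log2 change of -0.37 under the block (adjusted p = 0.0561).

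In T3M-4, CDH1 in T>C reads was at 28.6, 24.9, 29.2 and 29.8 CPM in NEG and at 15.5, 20.3, 13.6 and 14 CPM in dTAG. Every dTAG library lay below every NEG library. The change was -0.83 (SE 0.20, unadjusted p = 0.00175), with an adjusted p of 0.121 in edgeR, 0.00706 in DESeq2, 0.0829 with the library number as a block and 0.0364 with the experiment as a block. On counts summed per experiment the change was -0.84 (adjusted p = 0.127). In the number block, 2.22% of 13424 genes differed. Over all reads CDH1 was at 32.5, 33.2, 28.3 and 31.8 CPM in NEG and 24.7, 31.7, 28.6 and 26 CPM in dTAG, which overlapped (log2 change -0.19, adjusted p = 1.0). The test of the difference in this change, T3M-4 less AsPC-1, found none for CDH1 (-0.28, SE 0.65, adjusted p = 1.0), nor did it pass for any of 9 members tested (background 0.0426% of 14088 genes).

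**Figure D3:**
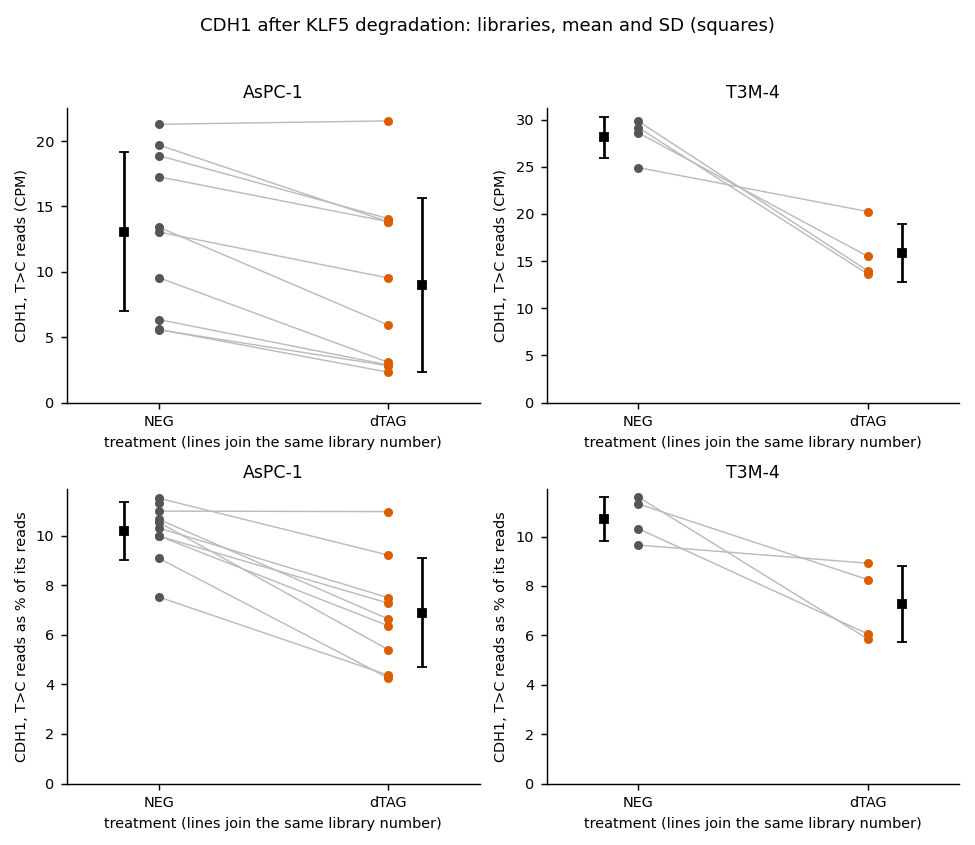
CDH1 in NEG and dTAG libraries of AsPC-1 and T3M-4, as T>C CPM and as labelled share in percent, with lines joining libraries of the same number and squares at the mean ± SD. In AsPC-1 9 of 10 lines fall in T>C reads although the levels differ widely between library numbers, and in T3M-4 all dTAG points lie below all NEG points.

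The other members tested missed the threshold with and without the library number as a block, on the CPM scale. In AsPC-1, the T>C change after dTAG was 0.35 for VIM (SE 0.15, adjusted p = 0.338), -0.24 for SNAI2 (SE 0.15, adjusted p = 0.597), 0.17 for ZEB1 (adjusted p = 0.757), -0.20 for CDH3 and 0.82 for ZEB2 (SE 0.97). SNAI2 was lower in dTAG in 9 of 10 libraries of the same number, ZEB1 higher in 9 of 10 and VIM higher in 8 of 10. With the number as a block the adjusted p was 0.163 for SNAI2, 0.141 for ZEB1 and 0.115 for VIM. When the T>C counts were also scaled by all reads, SNAI2 passed (-0.48, adjusted p = 0.0177), on a scale where the median gene stood at -0.21. VIM ran from 673 to 1400 CPM in NEG and from 914 to 1730 CPM in dTAG, and ZEB1 from 125 to 266 CPM and from 132 to 281 CPM. In T3M-4 the T>C change was -0.52 for SNAI2 (SE 0.26, adjusted p = 0.768), 0.22 for CDH3, 0.08 for VIM, 0.54 for CDH2 (SE 0.63) and 0.60 for SNAI1 (SE 0.98). SNAI2 there was at 44, 46.5, 62 and 65 CPM in NEG and 25.1, 35.2, 35.8 and 55.9 CPM in dTAG, lower in 4 of 4 pairs but with overlap (adjusted p = 0.161 with the block), and CDH3 was higher in 4 of 4 pairs (adjusted p = 0.66 with the block). FN1 in T3M-4 was at 64.3, 59, 48.9 and 16.5 CPM in NEG and 105, 91.7, 40.7 and 27.6 CPM in dTAG, and its change of 0.49 missed the threshold. ZEB1 in T3M-4 rested on 15, 43, 40 and 47 T>C reads in NEG and 54, 32, 26 and 5 in dTAG, which overlapped (change -0.62, SE 0.74).

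The labelled share of CDH1 was lower after dTAG in both lines. In AsPC-1 it was 6.89% ± 2.19 (SD, n = 9) in dTAG and 10.2% ± 1.17 (SD, n = 10) in NEG (exact two-sided permutation test, p = 0.00123, adjusted over all genes 0.00831), lower in 9 of 9 pairs. The share of SNAI2 was 44.9% ± 3.55 (n = 9) against 52.7% ± 3.38 (n = 10) (exact p = 6.5e-05, adjusted 0.00194), and that of ZEB1 27.0% against 30.8% (exact p = 0.0401, n = 9 and 10, adjusted 0.078). The lower shares came in libraries where most genes were lower: 42.9% of 10980 genes were called, 95.2% of genes had a lower mean share in dTAG, and the median change was -2.37 percentage points, the library share itself being 7.58% to 8.67% in dTAG and 7.93% to 10.1% in NEG. Divided by the library's own share, CDH1 was at 0.864 in dTAG and 1.1 in NEG (exact p = 0.0335, n = 9 and 10), which missed the adjustment over all genes (0.365), 11.8% of genes having an unadjusted p under 0.05 on that scale. SNAI2 was at 5.61 and 5.69 (exact p = 0.686, n = 9 and 10). In T3M-4 the CDH1 share was 8.26%, 8.92%, 5.86% and 6.06% in dTAG and 11.3%, 9.66%, 11.6% and 10.3% in NEG. The groups did not overlap (exact p = 0.0286, the smallest that 4 against 4 libraries allow, adjusted 0.521), although 0% of 12252 genes passed the adjustment, 672 had an unadjusted p under 0.05, and the median gene was 0.642 percentage points higher in dTAG. Divided by the library share, CDH1 was 0.558 against 0.848 there, again without overlap (adjusted p = 0.561).

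No member tested under CB-6644 passed the threshold in edgeR, and DESeq2 called ZEB1 in T3M-4. In T>C reads 0 of 5 members differed in AsPC-1 at 4 h (background 0% of 11649 genes, 482 genes at an unadjusted p under 0.05 and 0 called by DESeq2). In T3M-4 0 of 8 members differed (background 0% of 13444 genes, 569 genes at an unadjusted p under 0.05 and 5 called by DESeq2), and in AsPC-1 at 12 h 0 of 7 (background 0% of 12204 genes, 473 genes at an unadjusted p under 0.05 and 20 called by DESeq2). The members at an unadjusted p under 0.05 were 0, 1 (ZEB1) and 1 (VIM), of which DESeq2 called ZEB1. Over all reads, edgeR called 0 of 6, 0 of 8 and 0 of 8 members, against 0% of 13891, 0.0127% of 15761 and 0% of 14398 genes. There 1, 1 and 0 members had an unadjusted p under 0.05, DESeq2 called 0 members, and over all genes 267, 453 and 325 had such a p and DESeq2 called 5, 10 and 19.

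In T3M-4, ZEB1 stood out among the members. It had 36, 13, 11 and 21 T>C reads in DMSO (1.42, 0.764, 0.607 and 0.957 CPM) and 150, 89, 60 and 42 in CB-6644 (6.29, 5.18, 3.05 and 2.48 CPM). Every CB-6644 library lay above every DMSO library. The change was 2.18 (SE 0.48, unadjusted p = 0.000917), with an adjusted p of 0.994 in edgeR and 0.0456 in DESeq2, and it kept its sign in both batches (2.36 in batch 1 and 1.81 in batch 2). Over all reads ZEB1 was at 0.669, 0.768, 0.499 and 0.279 CPM in DMSO and 1.56, 1.5, 0.877 and 0.875 CPM in CB-6644, again without overlap (change 1.14, SE 0.37, adjusted p = 1.0). In AsPC-1, where ZEB1 was at 106 to 293 CPM of T>C reads in DMSO, its change at 4 h was 0.25. The difference between the lines was 1.91 (SE 0.48, unadjusted p = 0.000758, adjusted p = 1.0), with 0 of 8 members and 0% of 13963 genes called and 511 genes at an unadjusted p under 0.05.

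The other T3M-4 changes were 1.97 for CDH2 (SE 0.91, on 6, 0, 10 and 4 reads in DMSO and 16, 6, 28 and 24 in CB-6644), 1.04 for SNAI1, and between -0.18 and 0.18 for CDH1, CDH3, VIM, FN1 and SNAI2. In AsPC-1 at 4 h the changes of CDH1, CDH3, VIM and SNAI2 lay between -0.27 and -0.12. At 12 h the change was -0.59 for VIM (SE 0.23, unadjusted p = 0.0309, adjusted p = 0.998), -0.70 for CDH3, -0.37 for SNAI2, 0.12 for ZEB1 and 0.03 for CDH1. For the scarce SNAI1 and ZEB2 it was 0.93 (SE 0.75) and 0.56 (SE 1.53). The change at 12 h minus that at 4 h passed in edgeR for 0 of 7 members and 0% of 12720 genes, with 0 members and 414 genes at an unadjusted p under 0.05, and time and batch cannot be told apart there.

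The labelled share of VIM was lower under CB-6644 in AsPC-1 without overlap at either time. At 4 h it was 3.82%, 3.84%, 3.67%, 3.81% and 3.75% in CB-6644 and 6.64%, 6.58%, 5.51%, 6.33% and 5.22% in DMSO (exact p = 0.00794, the smallest that 5 against 5 libraries allow, adjusted over all genes 0.1). At 12 h it was 4.98%, 4.82%, 3.99% and 4.02% against 6.23%, 6.69%, 5.79% and 5.41% (exact p = 0.0286, the smallest possible, adjusted 0.885). At 4 h 85.4% of genes had a lower share in CB-6644, with a median change of -1.96 percentage points, and at 12 h 53.1% did. Over the library's own share, VIM was 0.445 against 0.603 at 4 h and 0.504 against 0.653 at 12 h, both without overlap. Neither passed the adjustment of the exact test over all genes (0.41 and 0.639). SNAI2 went the other way on that scale at 4 h, 6.35 against 5.71, with overlap (exact p = 0.0159, n = 5 and 5, adjusted 0.429). There 8.99% of genes had an unadjusted p under 0.05. In T3M-4, where VIM is scarce, its share was 4.53% against 5.88% and the groups overlapped. Across all genes 0% of 10961, 0% of 12251 and 0% of 11547 passed the adjustment in AsPC-1 at 4 h, T3M-4 and AsPC-1 at 12 h, with 2551, 247 and 373 genes at an unadjusted p under 0.05.

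NVP-2 blocks the kinase that releases RNA polymerase II from pausing. Relative to the other RNA of the same library, SNAI2 fell in both lines, and it was the 1 member called of 5 tested in AsPC-1 (background 30.5% of 11498 genes) and of 6 tested in T3M-4 (background 26.7% of 12242 genes). In AsPC-1, SNAI2 was at 34.8, 55.2, 48.6, 45.2 and 50.4 CPM of T>C reads in DMSO and 3.52, 4.55, 6.94 and 2.91 CPM in NVP-2 (9, 10, 16 and 5 reads). Every NVP-2 library lay far below every DMSO library (change -3.24, SE 0.33, adjusted p = 6.61e-05).

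In T3M-4, SNAI2 was at 32.4, 22.7, 66.4 and 70.3 CPM of T>C reads in DMSO and 7.74, 6.85, 5.43 and 3.19 CPM in NVP-2. The groups again stood apart (change -2.96, SE 0.50, adjusted p = 0.00214). Over all reads SNAI2 fell too, to 0.325 to 0.615 CPM in AsPC-1, where DMSO libraries held 7.07 to 9.95 CPM (change -4.05, adjusted p = 4.2e-05) and to 0.41 to 0.906 CPM in T3M-4, where they held 3.83 to 9.12 CPM (change -3.47, adjusted p = 0.00158), again as the 1 member called of 7 and of 8 tested (background 11.8% of 14095 and 5.16% of 15653 genes).

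**Figure D4:**
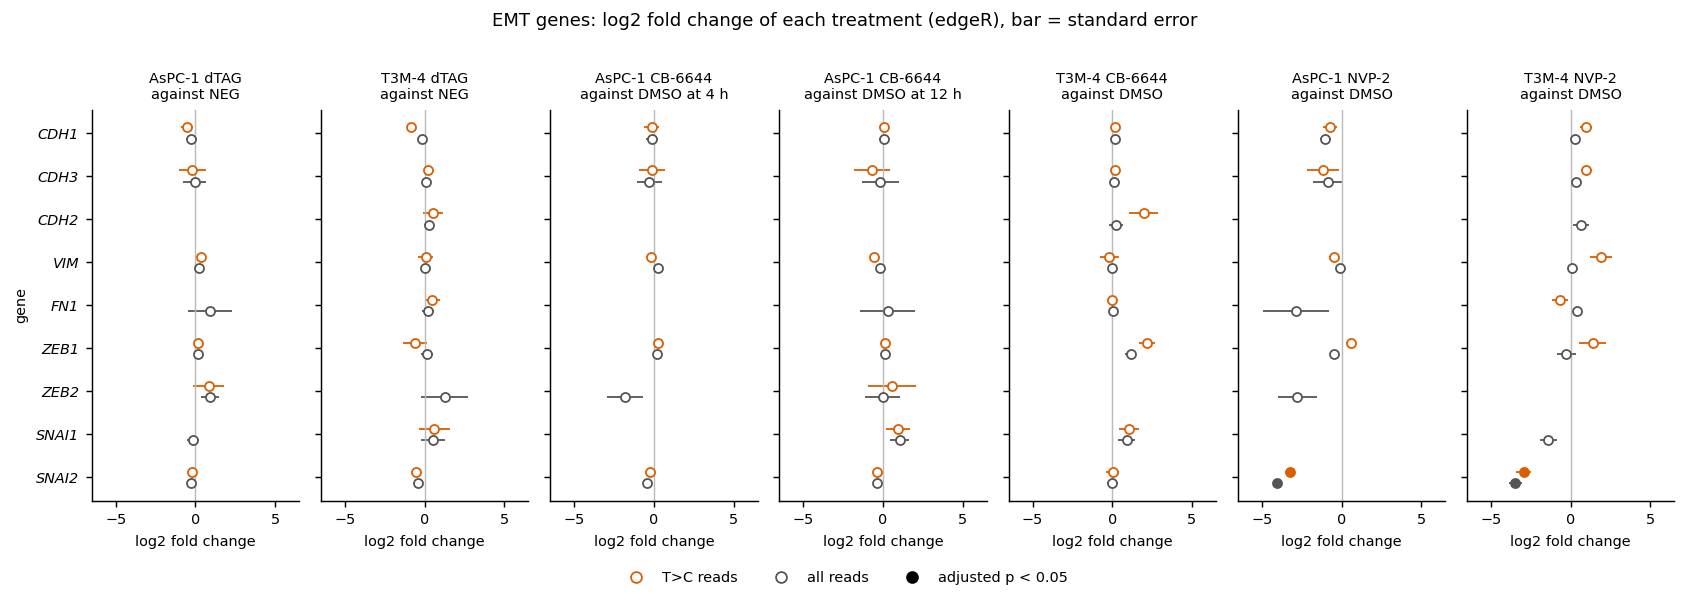
Log2 fold change ± SE from edgeR for the members tested in each of the 7 comparisons, in T>C reads and in all reads, with filled points where the adjusted p is under 0.05. The filled points are those of SNAI2 under NVP-2 in both lines and both tables.

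No other member passed the edgeR test in T>C reads under NVP-2. In T3M-4, CDH1 was at 34.2, 39.2, 59.3 and 54.6 CPM in NVP-2 and 16.1, 20, 31.4 and 33.5 CPM in DMSO, with every NVP-2 library above every DMSO library (change 0.95, SE 0.36, adjusted p = 0.0726). VIM was at 2.38, 4.72, 6.2 and 10.9 CPM against 1.26, 3.06, 1.1 and 1.28 CPM, with overlap (change 1.90, SE 0.66, adjusted p = 0.0557), and the change of CDH3 was 0.98 (SE 0.35, adjusted p = 0.062). DESeq2 called these 3 (adjusted p = 0.0178, 0.00734 and 0.017). ZEB1 and FN1 there rested on T>C reads in multiples of 10, 10, 10, 10 and 0 for ZEB1 and 70, 130, 70 and 10 for FN1 in NVP-2, so few fragments lay behind them. Their changes were 1.38 (SE 0.85) for ZEB1 and -0.67 (SE 0.49) for FN1.

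SNAI1 and CDH2 had too few T>C reads in T3M-4 to pass the filter on low counts with NVP-2, but their reads went opposite ways. SNAI1 had 43, 23, 12 and 51 T>C reads in DMSO and 0, 1, 0 and 0 in NVP-2, and its labelled share was 59.0% to 79.7% in DMSO and at most 4.17% in NVP-2. Every NVP-2 library of SNAI1 lay below every DMSO library. CDH2 had 6, 0, 10 and 4 T>C reads in DMSO and 1, 8, 34 and 10 in NVP-2, which overlapped. Without the filter edgeR called both, SNAI1 lower (adjusted p = 0.0493) and CDH2 higher (4.21, SE 1.21, adjusted p = 0.0265). In AsPC-1, SNAI1 had 2, 7, 1, 10 and 1 T>C reads in DMSO and 0 in all 4 NVP-2 libraries, which are shallower.

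In AsPC-1, the T>C changes under NVP-2 were -0.72 for CDH1 (adjusted p = 0.253), -1.18 for CDH3, -0.49 for VIM (adjusted p = 0.235) and 0.57 for ZEB1 (adjusted p = 0.157). The NVP-2 libraries and their DMSO control at 4 h belong to different batches, so treatment and batch cannot be told apart. Against DMSO at 12 h or NEG of experiment 3, which share the batch, ZEB1 was higher by 0.92 (adjusted p = 0.0257) and 1.04 (adjusted p = 0.0123), SNAI2 changed by -3.35 and -3.08, and CDH1 turned to 0.26 and 0.13. Over all reads the change of CDH1 was -1.02 (adjusted p = 0.0784 in edgeR, 0.0291 in DESeq2), and without DMSO replicate 1.3 it was -1.22 (adjusted p = 0.0203). That replicate is the only DMSO library at 4 h in set B, while NVP-2 libraries 2.1 and 2.2 lie in set B. Over all treatments the CDH1 median was 5.82 CPM in set B, 12.1 CPM in set A and 16.9 CPM in set C. The changes of CDH1 and CDH3 under NVP-2 in AsPC-1 thus compare unlike mixes of sets. The NVP-2 change did not pass the test of a line difference for any of 6 members (background 0.851% of 13159 genes), VIM being the nearest (T3M-4 less AsPC-1 2.34, SE 0.57, adjusted p = 0.0569).

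CPM of T>C reads hides a loss common to all genes. When T>C counts were scaled by each library's all reads, 94.2% of genes in AsPC-1 and 87.2% in T3M-4 differed under NVP-2, with a median change over all genes of -3.26 and -3.09 on the log2 scale. On that scale all 5 tested members fell in AsPC-1, CDH1 by 3.93, CDH3 by 4.35, VIM by 3.70, ZEB1 by 2.63 and SNAI2 by 6.44. In T3M-4 CDH1 fell by 2.07, CDH3 by 2.15, FN1 by 3.60 and SNAI2 by 5.80, while VIM (-1.24, adjusted p = 0.128) and ZEB1 (-1.64, adjusted p = 0.127) missed the threshold. SNAI2 had the lowest change of the tested members on both scales.

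SNAI2 also carried the highest labelled share of the members with at least 50 reads in each DMSO library at 4 h. In DMSO at 4 h, 57.4% ± 3.87 (SD, n = 5) of its reads in AsPC-1 and 79.6% ± 1.64 (SD, n = 4) in T3M-4 held conversions, above 99.5% of 9315 genes and 99.7% of 10687 genes, whose medians were 14.8% and 16.8%. ZEB1 in AsPC-1 stood at 31.6%, above 87.7% of genes, and CDH1 at 11.3% in both lines, above 35.8% and 30.1%. VIM was among the least labelled, at 6.05% in AsPC-1 and 5.88% in T3M-4, above 13.6% and 8.81% of genes, beside CDH3 (5.85%) and FN1 (7.09%) in T3M-4. SNAI2 and ZEB1 thus stood above CDH1 and VIM in AsPC-1. ZEB2 was too scarce to enter. Over the 9 T3M-4 libraries without NVP-2 that held its reads, its median share was 83.8%, against 79.7% for SNAI2. The shares were not adjusted for the T content of a gene. In the last 250 bases of the 3′ untranslated region T made up 41.2% in SNAI2, 37.6% in ZEB1 and in CDH1, and 33.6% in VIM. AU-rich ATTTA pentamers, held by 68.0% of 3′ untranslated regions, numbered 2 in SNAI2, 9 in ZEB1, 24 in ZEB2, 3 in SNAI1, 3 in CDH1 and 1 in VIM. These regions differ in length. Per kilobase there were 1.65 in SNAI2, 3.54 in ZEB1, 4.47 in ZEB2, 3.61 in SNAI1, 1.47 in CDH1 and 3.11 in VIM. CDH2, CDH3, FN1 and TWIST1 had 0.842, 1.59, 2.9 and 4.25 per kilobase. Whether they bear on the labelled share was not tested.

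**Figure D5:**
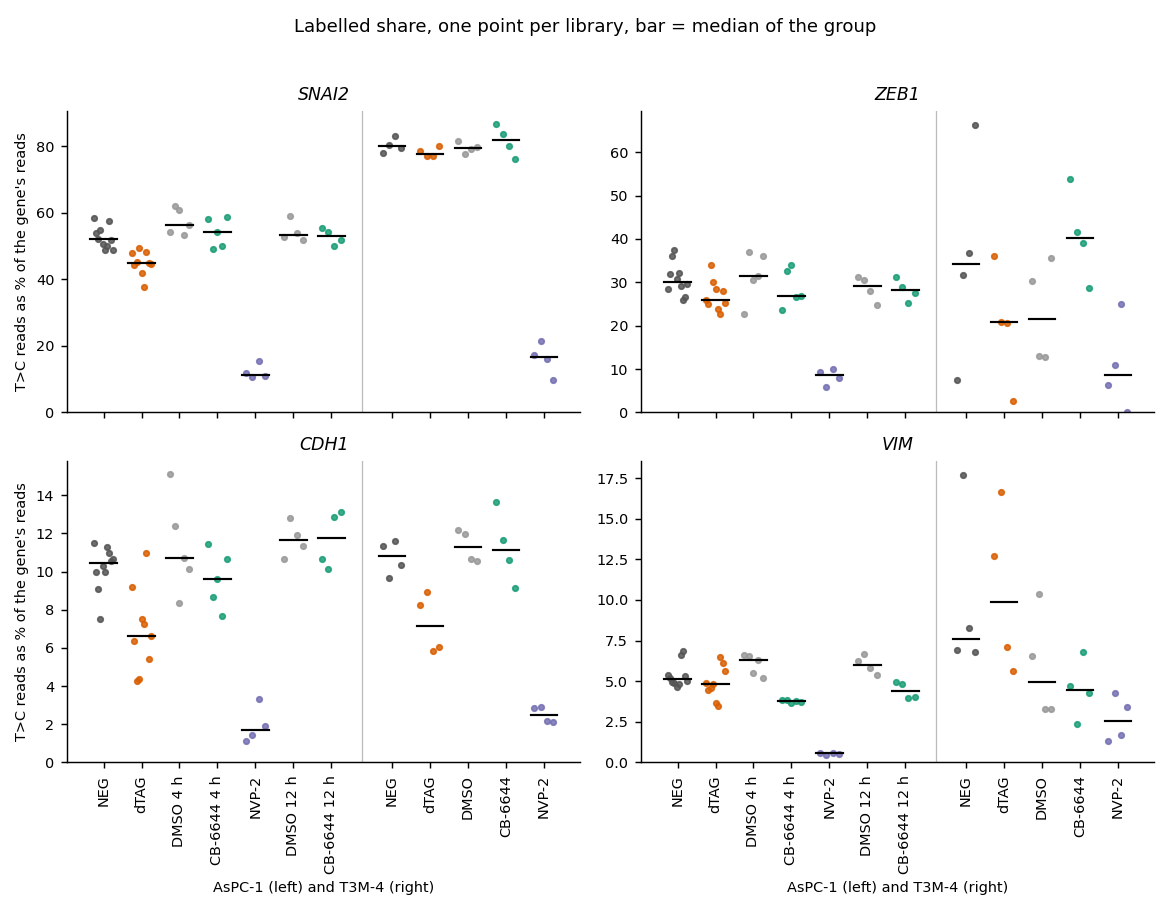
Labelled share (T>C reads as percent of all reads of the gene) of SNAI2, ZEB1, CDH1 and VIM in each group, with 1 point per library and a bar at the median. SNAI2 stands at 57.4% and 79.6% in the DMSO groups at 4 h and at 12.2% and 16.1% with NVP-2. VIM lies below SNAI2 in every group, with T3M-4 NEG library 1.2 at 17.7%.

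With NVP-2 the labelled share of SNAI2 was 11.8%, 10.8%, 15.4% and 10.9% in AsPC-1 and 17.3%, 21.5%, 15.9% and 9.86% in T3M-4, far below the 53.4% and 77.6% of the lowest DMSO libraries. The T3M-4 difference gave the smallest exact p that 4 against 4 libraries allow (p = 0.0286, adjusted over all genes 0.0318), and the AsPC-1 difference was not tested, since 1 NVP-2 library had under 50 reads of SNAI2. The CDH1 share was 1.96% with NVP-2 in AsPC-1 and 2.51% in T3M-4, against 11.3% in either DMSO group. VIM was at 0.546% and ZEB1 at 8.25% in AsPC-1, against 6.05% and 31.6%, and CDH3 at 1.07% and FN1 at 0.451% in T3M-4, against 5.85% and 7.09%. VIM in T3M-4 overlapped its control (2.68% against 5.88%, exact p = 0.171, n = 4 and 4). Across all genes 95.7% of 10802 in AsPC-1 and 90% of 12053 in T3M-4 passed the adjustment, so a fall of a member is what most genes showed. Divided by the library's own share, SNAI2 in T3M-4 was 7.24 in NVP-2 and 6.49 in DMSO (exact p = 0.514, n = 4 and 4). On that scale in AsPC-1, VIM was lower (0.351 against 0.603) and ZEB1 higher (5.28 against 3.15), both without overlap. Each had the smallest exact p that 4 against 5 libraries allow (0.0159, adjusted over all genes 0.0481), and 33% of 10802 genes passed. In T3M-4 0 of 12053 genes passed.

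The other genes of the process were counted in 4 lists. Counts are to be read against the 281 of 11696 genes called after dTAG in AsPC-1 (2.4%) and the 112 of 13424 in T3M-4 (0.834%). After dTAG in AsPC-1, 2 of 14 tested adhesion partners fell in T>C reads, PKP3 (plakophilin 3, by 0.85, adjusted p = 0.0149) and JUP (plakoglobin, by 0.82, adjusted p = 0.0297), and the list's median change was -0.27 against 0.03 over all genes. Of 9 epithelial regulators, ELF3 fell by 1.31 (adjusted p = 0.000535) and the KLF5 transcript rose by 0.60 (adjusted p = 0.00284). Of 12 other factors of the transition, SOX4 rose by 0.88 (adjusted p = 0.00413) and ID1 fell by 1.67 (adjusted p = 0.000467), and of 18 mesenchymal effectors CD44 rose by 0.34 (adjusted p = 0.0202).

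In T3M-4 the same lists gave JUP, which fell by 0.88 (adjusted p = 0.0439), as the 1 of 15 adhesion partners called. Of 14 epithelial regulators, ELF3 fell by 2.04 (adjusted p = 0.00517), and KLF5 (0.90, adjusted p = 0.0258) and FOXA2 (1.18) rose. Of 14 other factors and 24 mesenchymal effectors, 0 passed the edgeR test, with 1 and 7 at an unadjusted p under 0.05. Under CB-6644 0 genes of the 4 lists passed it in any of the 3 comparisons. At an unadjusted p under 0.05 there were 0 of them in AsPC-1 at 4 h, 1 mesenchymal effector in T3M-4, and 1 epithelial regulator and 2 mesenchymal effectors in AsPC-1 at 12 h.

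Under NVP-2, edgeR called 2018 of 11498 genes lower and 1488 higher in AsPC-1, and 1740 of 12242 lower and 1523 higher in T3M-4. In AsPC-1 4 of 9 epithelial regulators fell, KLF4 by 3.26 and CDX2 by 3.36 among them, and 6 of 12 other factors, with SOX9 by 3.0 and ID2 by 3.11 among them. In T3M-4 6 of 13 and 5 of 12 fell, and HMGA2 rose by 0.78. The adhesion partners split, 1 higher and 1 lower of 14 in AsPC-1 (CTNNA1 0.99, CLDN4 -2.75) and 2 higher and 4 lower of 15 in T3M-4 (EPCAM 2.73 and CLDN7 2.30 among the higher, CLDN4 -2.69 among the lower). The mesenchymal effectors split too, 3 higher and 4 lower of 18 in AsPC-1 and 6 higher and 4 lower of 28 in T3M-4, with TGFBI higher in both (1.21 and 1.52) and CCN1 lower in both (-3.02 and -3.28).

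Between the lines in T>C reads, 3498 of all 13044 genes were higher and 2813 lower in T3M-4 (48.4% called). Of the lists, 9 of 14 epithelial regulators were higher and 1 (ELF3) lower in T3M-4, with FOXA2, GRHL2 and ESRP1 of smallest p among the higher. Of 15 adhesion partners 5 were higher and 3 lower, of 13 other factors 5 higher and 3 lower, and of 23 mesenchymal effectors 6 higher and 11 lower. S100A4 and TPM1 were among the lower effectors and MMP14 among the higher. As with VIM and FN1, the mesenchymal genes went both ways.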

How the data were processed

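Counts of T>C reads and of all reads per gene were deposited by the authors, made with slamdunk on the 3′ untranslated exons of GENCODE v44 (hg38) from 3′ end libraries and summed per gene name, with no spike-in. The tables also held 18 empty columns without a name and 0 unmapped columns with values. The all-reads column of AsPC-1 dTAG library 3.1 was left out because it holds the T>C counts of AsPC-1 DMSO 12 h library 2. Each comparison was fitted on all genes of a table (filterByExpr, TMM, edgeR 4.0.16 quasi-likelihood test, Benjamini-Hochberg adjustment, called under 0.05) with DESeq2 1.42.0 as an alternative, in R 4.3.3. No libraries of a group were identical or within counting noise. Labelled shares needed 50 reads in each library and were compared by exact permutation of libraries (scipy 1.17.1). The planned adjustment over 34 pairs of member and comparison was replaced in the text by one over all genes. The rule for named genes took all 10 members, with values for those tested, and from the 4 lists (adhesion partners, epithelial regulators, other factors, mesenchymal effectors) at most 3 called genes per direction, of smallest p, with 1 such gene not reported here. The members and lists were chosen with earlier results of these data known. Library numbers were taken to pair samples where every same-numbered pair's deviations from the group means correlated over 0.1 across genes: AsPC-1 dTAG (0.264 to 0.544 in T>C reads), T3M-4 dTAG (0.167 to 0.453), T3M-4 CB-6644 and AsPC-1 CB-6644 at 12 h. In T>C reads the same number was the closest match on both sides in 3 of 10 pairs of AsPC-1 dTAG and 2 of 4 of T3M-4 dTAG. It was so in 1 of 4 pairs of either CB-6644 comparison. Bounds against groups at 0 used 3 counts and cover counting error only. Scripts were tested on simulated data.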

Additional observations from a re-analysis of the deposited data

Results flagged for a closer look

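Of 144 sets of 4 to 10 library values of a member, 3 held a value far from the rest by Dixon's criterion, which chance alone gives in about 1 of 20. CDH1 in T>C reads was at 4.98 CPM in AsPC-1 DMSO 4 h library 1.3, where the nearest library had 19.3 and the highest 21.8 CPM. Library 1.3 belongs to set B, in which the median of CDH1 in T>C reads was 6.6 CPM (2.33 to 15.2). In set A it was 13.05 CPM (5.94 to 34.3), so the sets overlapped. VIM in T>C reads was at 3.06 CPM in T3M-4 DMSO library 1.2, against 1.1 to 1.28 CPM in the others. The labelled share of VIM was 17.7% in T3M-4 NEG library 1.2, where the nearest library had 8.27% and the lowest 6.82%.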

How the results depend on the processing

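Of the values of single members, 500 kept direction and side of the threshold across alternatives, 34 passed it newly, 15 lost it and 11 changed sign; of the counts, 225 stayed within 1.5 times and 27 did not. In AsPC-1 dTAG T>C reads the members called went from 0 to 1 (CDH1) with a replicate block, a library set block, or the replicate block without the MIR205HG libraries, and to 2 with the replicate block scaled by all reads (with SNAI2 -0.48); over all reads the library set block gave 1 (CDH1). DESeq2 and the experiment block gave 1 (CDH1) for T3M-4 dTAG, and counts summed per experiment 0, and DESeq2 gave 1 (ZEB1) for T3M-4 CB-6644. For AsPC-1 NVP-2 T>C reads, scaling by all reads called 5 and either same-batch control 2; CDH1 turned to 0.26 (DMSO at 12 h) and 0.13 (NEG), VIM to 0.07 (NEG) and ZEB1 to -2.63 (scaled). Over all reads DESeq2 called 2 and the replicate block 3, though library numbers were not taken as pairs there. Leaving out libraries called 1 to 2, with CDH1 at -1.22 (adjusted p = 0.0203) without DMSO replicate 1.3, the only DMSO library at 4 h in set B. For T3M-4 NVP-2 T>C reads the 1 member called became 3 with no filter (with CDH2 and SNAI1), 4 with DESeq2, 3 with the experiment block, 2 in batch 1 alone, 3 in batch 2 alone, 4 scaled by all reads, and 1 to 5 with a library left out (5 without NVP-2 replicate 1.1, adding CDH2, CDH3 at 1.13, VIM at 2.13 and SNAI1, and 2 without any other NVP-2 replicate, adding SNAI1, which then passed the filter); scaled, CDH1 turned to -2.07, CDH3 to -2.15 and VIM to -1.24. The T>C line difference of SNAI2 was -0.09 with the replicate block and -0.17 to 0.3 with a library left out. The NVP-2 difference between lines called 1 (VIM) with no filter. The replicate block changed no other call of a treatment comparison. Of the labelled shares, 2 of 34 passed the planned adjustment, and 0 passed it after division by the library share. With adjustment over all genes 9 passed. After the division, those passing that adjustment were VIM and ZEB1 in AsPC-1 under NVP-2 (exact permutation, adjusted p = 0.0481 each). The cause of these shifts was not tested.

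Counts over all genes moved more. AsPC-1 dTAG T>C calls were 281, against 867 with the replicate block, 478 with DESeq2, 447 with the experiment block, 911 with the library set block, 941 scaled by all reads (which moved the median gene to -0.22), 1830 scaled with the block, and 103 and 16 in batch 1 and batch 2 alone; over all reads they were 111, 542 with the block, 767 with the library set block and 222 with DESeq2. T3M-4 dTAG T>C calls were 112, against 298 with the block, 340 with DESeq2, 354 with the experiment block and 38 in batch 1; over all reads they were 3, against 47 with the block and 70 with DESeq2. NVP-2 calls over all reads were 1667 in AsPC-1 and 807 in T3M-4, against 2707 and 1473 with DESeq2 and 1021 and 2626 with the replicate block. Library numbers were not taken to pair NVP-2 with DMSO. The lowest same-numbered correlation in T>C reads was -0.0875 in AsPC-1 and 0.079 in T3M-4. Depth limits CDH2, ZEB2 and SNAI1 in both lines, and ZEB1 and VIM in T3M-4, where few T>C reads stand behind a value.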

Other observations

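Some AsPC-1 libraries held reads of genes read strongly in T3M-4. MIR205HG had 773 to 1127 reads (305 to 527 of them T>C) in 5 libraries of batch 2 and 0 in the other 36 with all reads. The 5 were library 2 of CB-6644 and of DMSO at 12 h, library 3.2 of dTAG and of NEG, and library 1.2 of NVP-2. KRT5, a basal keratin gene, had 65 to 98 reads in them and 0 to 12 in the other AsPC-1 libraries, and KRT6A had 193 to 262 against 0 to 35. FN1, which T3M-4 reads at 55.1 to 68.2 CPM in DMSO, had 81 to 130 reads over all reads and 0 T>C reads in the 5. Their part in the results was not tested beyond leaving them out, which changed no call of a member.

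Likeness to other genes was also computed for members in T3M-4, over 16 libraries without NVP-2. CDH3 was most like LMNB2 (r = 0.987), SNAI2 most like CTDSPL2 (0.967), FN1 most like ZNF638 (0.949) and CDH1 most like AKT1S1 (0.926). In AsPC-1, over 37 libraries, SNAI2 was most like NAMPT (0.856) and TMED7 (0.839). These values describe these libraries only.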
